A study of Mus musculus with 40 samples.

Results

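RAD21 binding was compared between small pre-B cells treated with oligomycin (labelled ATPneg) and untreated wild-type (WT) small pre-B cells, by chromatin immunoprecipitation and sequencing (ChIP-seq). The comparison was made by taking the RAD21 peak lists of these groups, 2 libraries each, which are 4 of the 40 samples of the series and hold 142336 peaks. Small pre-B cells are the bone marrow stage at which immunoglobulin light chain genes recombine. In both groups they were sorted by flow cytometry from the marrow of WT mice. The ATPneg cells were then held in culture for 2 h with 126 nM oligomycin A, an inhibitor of the mitochondrial ATP synthase. The labels name no culture step for the WT cells and no vehicle culture, so the culture and the drug cannot be told apart. The series text calls the 2 libraries of a group biological replicates. The ATPneg libraries come as peak lists without counts, so their depth is unknown here, and a peak missing from a list shows that no peak passed the score threshold of 5, not that no RAD21 was there. Of 36 peak lists, 6 hold peaks named for another sample than the one they were deposited for. The RAD21, SMC3, CTCF, WAPL and H3K27ac lists used here are not among them. The NIPBL WT 1 list is: its peaks carry the name of NIPBL in Brwd1 knockout cells, replicate 2, so results on NIPBL are given with both WT lists and with NIPBL WT 2 alone. The H3K4me1 WT lists carry names of H3K27ac in Brwd1 knockout cells, and overlaps with them are not reported. In bulk chromatin, binding in fewer cells and weaker binding per cell cannot be told apart.

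Cohesin is a ring of SMC1, SMC3 and the kleisin RAD21 that closes around DNA. NIPBL helps to load it and stimulates its ATPase, WAPL releases it, and the ATPase drives the extrusion of DNA loops. CTCF bound at its motif stops the moving ring, so that cohesin in many cell types collects at CTCF sites.

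Acetylation at gene starts was found at most B lineage markers, and also at markers of other cell types. The share of starts with a peak did not set the B lineage list far apart from the T cell and myeloid lists. A WT peak of the active mark H3K27ac stood at the start of 6 of 10 B lineage markers, with a summed level of 48.1 and 49.6 CPM (counts scaled to the reads in all regions of the library) in WT 1 and 2, led by Rag1 at 25.6 and 26.8 CPM. The 7 T cell markers summed to 3.83 and 3.60 CPM with peaks at 4 starts, and the 6 myeloid markers to 9.56 and 9.38 CPM with peaks at 3. Cd3d and Cd3g of the T cell list had the same values, 0.515 and 0.670 CPM in WT 1 and 2. A shared region was thus probably counted for each of them. Of the 6 erythroid markers 1 had a peak, Hbb-b1, at 108.0 and 111.9 CPM, while Klf1, Epor and Alas2 were among those listed at 0. Vpreb1, Igll1 and Rag2 of the B lineage list were also listed at 0. A 0 was entered where no deposited H3K27ac region was annotated to the promoter, so it is not a count of reads. The part of these other markers in the RAD21 lists was not tested.

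After oligomycin, RAD21 peaks were found at a different set of places in the genome. Peaks at CTCF sites made up 41.1% and 43.1% of the ATPneg lists, against 1.49% and 1.42% of the WT lists. A CTCF site here is a peak of CTCF WT 1 that overlaps one of CTCF WT 2, and with CTCF WT 2 alone these shares were 78.1% and 52.8%, against 22.0% and 23.6%. The series holds no CTCF or H3K27ac library of ATPneg cells. Whether CTCF was bound or H3K27ac present at these places after oligomycin is therefore unknown. The wide WT peaks away from CTCF were nearly all missing from the ATPneg lists. The promoters of Bcl2l1, an anti-apoptotic gene, Ankrd39, an ankyrin repeat gene, Slc36a1, an amino acid transporter gene, and Irak2, an interleukin receptor kinase gene, were among the places with a RAD21 peak in both ATPneg libraries and in neither WT library. They are shown because the gained peak overlay a region with the gene's start, overlapped a CTCF peak, and ranked highest among the promoters searched for this with a match to the CTCF core on either strand, searched as CC, 3 free bases, AG, 2 free bases and GGC. Each stretch is RefSeq sequence of build GRCm38.p6, read 5′ to 3′ on the gene's strand from 250 bases before the start to 50 after it, with the match in capitals (as its reverse complement in Ankrd39 and Irak2).
Bcl2l1, chr2:152830668-152830967, - strand: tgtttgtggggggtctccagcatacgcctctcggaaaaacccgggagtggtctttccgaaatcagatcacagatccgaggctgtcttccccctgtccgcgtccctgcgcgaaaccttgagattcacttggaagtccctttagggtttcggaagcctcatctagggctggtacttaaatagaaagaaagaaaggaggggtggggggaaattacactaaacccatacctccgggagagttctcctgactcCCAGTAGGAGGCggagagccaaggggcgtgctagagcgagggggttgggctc
Ankrd39, chr1:36547203-36547502, - strand: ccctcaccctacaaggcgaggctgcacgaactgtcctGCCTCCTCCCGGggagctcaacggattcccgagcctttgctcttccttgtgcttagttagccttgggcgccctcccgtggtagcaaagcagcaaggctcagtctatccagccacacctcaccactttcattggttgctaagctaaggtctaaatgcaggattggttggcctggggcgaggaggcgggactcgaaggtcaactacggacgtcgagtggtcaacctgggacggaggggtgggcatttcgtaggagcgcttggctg
Slc36a1, chr11:55204090-55204389, + strand: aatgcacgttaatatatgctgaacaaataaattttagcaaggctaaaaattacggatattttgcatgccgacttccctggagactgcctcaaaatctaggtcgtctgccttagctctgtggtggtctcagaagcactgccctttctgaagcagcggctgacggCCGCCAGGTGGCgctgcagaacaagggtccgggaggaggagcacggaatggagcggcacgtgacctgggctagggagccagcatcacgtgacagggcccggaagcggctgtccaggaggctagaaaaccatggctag
Irak2, chr6:113638217-113638516, + strand: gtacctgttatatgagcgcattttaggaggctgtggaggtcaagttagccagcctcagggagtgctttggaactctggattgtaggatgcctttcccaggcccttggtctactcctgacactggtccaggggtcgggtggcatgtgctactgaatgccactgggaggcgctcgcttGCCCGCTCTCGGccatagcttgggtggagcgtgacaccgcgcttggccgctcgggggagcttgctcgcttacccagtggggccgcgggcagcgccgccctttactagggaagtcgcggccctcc
The peaks themselves are on build mm9, as in the deposited lists, and positions were not carried between builds. In mm9 the Bcl2l1 peak of ATPneg 1 lay at chr2:152656776-152657638. Its peak score was 44.5 in ATPneg 1 and 169 in ATPneg 2. The Slc36a1 promoter peak scored 32.9 and 107, the Ankrd39 peak 22.2 and 163, and the Irak2 peak 20.2 and 126 in ATPneg 1 and 2. All 4 peaks overlapped an SMC3 peak of ATPneg cells and none overlapped a WT H3K27ac peak. Over all gained peaks these shares were 91.0% and 11.7%. Of all 27025 genes with a promoter, 9.84% held the core in any of their promoters (95% interval 9.49 to 10.2%). Among genes whose start lay inside the annotated region of a gained peak, 43.2% of the 199 matched to RefSeq held it (36.2 to 50.4%). Among genes with a peak of the class within 2 kb of the start it was 24.6% of 672 for gained (21.3 to 28.0%), 21.2% of 33 for kept (8.98 to 38.9%) and 8.33% of 72 for lost peaks (3.12 to 17.3%). A match of letters is a description and not a bound site.

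The ATPneg lists were shorter, narrower and less alike than the WT lists. They held 16375 and 35784 peaks, against 42423 and 47754 in the WT libraries. The median peak width was 170 and 410 bp in ATPneg 1 and 2, against 548 and 492 bp in WT 1 and 2. The covered genome came to 3.55 and 17.1 Mb in ATPneg cells, against 43.5 and 47.9 Mb in WT cells. Every ATPneg value lay below every WT value for these measures, and above it for the share at CTCF. An exact two-sided permutation test over the 4 libraries gave p = 0.333 for each of the 4 measures, the smallest p that 2 against 2 can give. Peaks over 1 kb were 0.0672% and 6.20% of the ATPneg lists, against 29.9% and 28.2% of the WT lists.

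**Figure D1:**
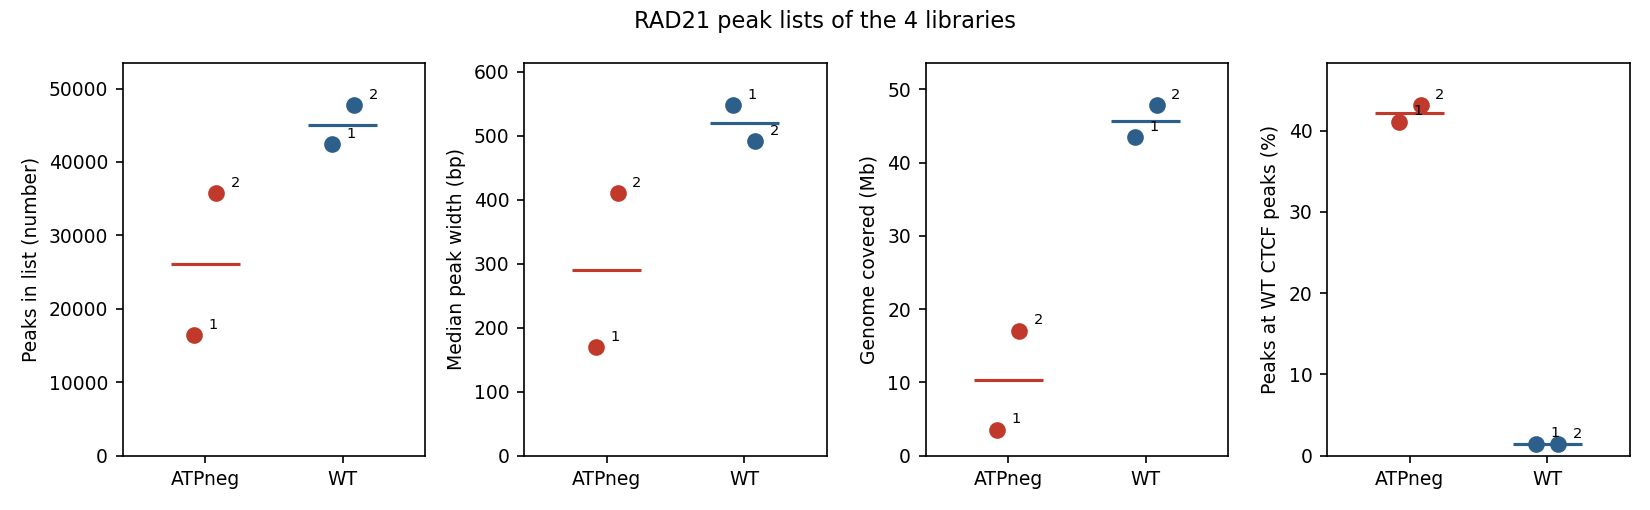
Number of RAD21 peaks, median peak width in bp, genome covered in Mb and share of peaks that overlap a WT CTCF consensus peak, for each library; points are libraries (numbered by replicate), lines the mean of 2, with ATPneg left of WT. The ATPneg points lie below the WT points in the first 3 panels, with the 2 ATPneg libraries far apart, and at 41.1% and 43.1% against 1.49% and 1.42% in the last.

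The shared bases put the 4 libraries into their groups, with a wide gap between the ATPneg replicates. The Jaccard index, the bases covered in both lists over those covered in either, was 0.132 between ATPneg 1 and 2 and 0.764 between WT 1 and 2. Between an ATPneg and a WT library it was at most 0.00770. ATPneg 2 shared more with the SMC3 lists of ATPneg cells (0.517 and 0.514) than with ATPneg 1. In WT cells RAD21 and SMC3 lists shared 0.704 to 0.753.

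**Figure D2:**
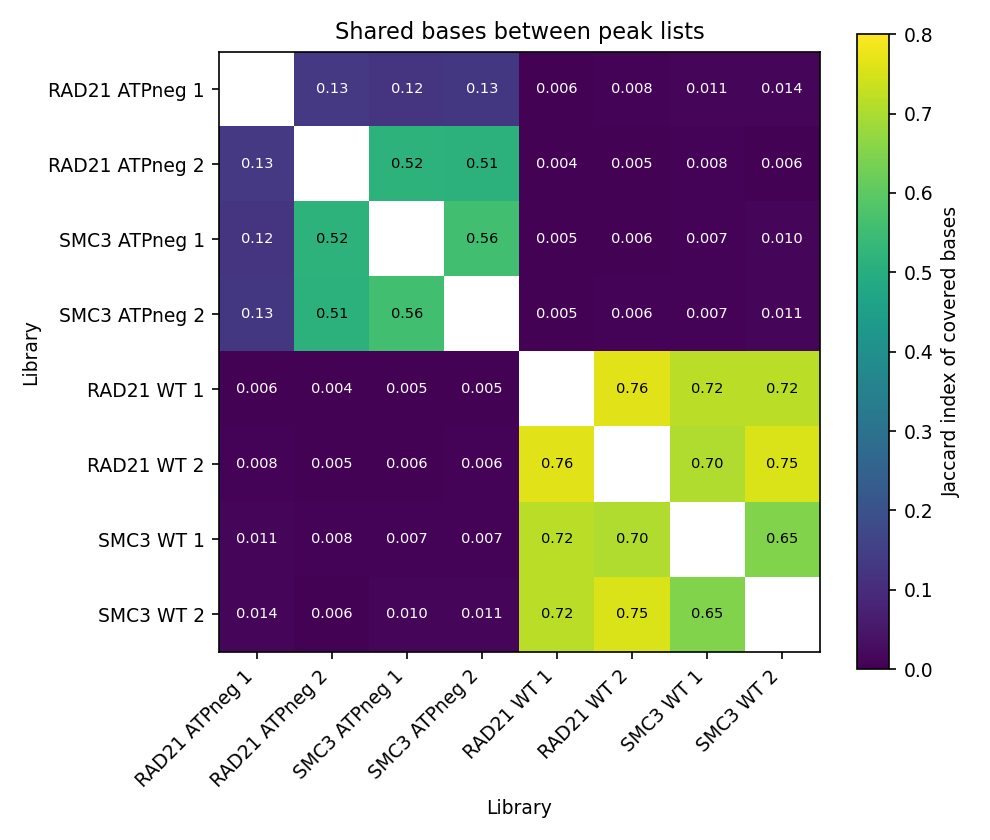
Jaccard index of covered bases (colour and number, 0 to 1) for each pair of RAD21 and SMC3 peak lists; rows and columns are libraries, ATPneg first. Indices between WT lists are 0.649 to 0.764 and those between ATPneg and WT lists reach at most 0.0139; RAD21 ATPneg 1 stands apart from the other ATPneg lists at 0.120 to 0.132.

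The ATPneg libraries differed in what kind of place they marked outside their common peaks. Of the ATPneg 1 peaks, 57.6% overlapped a peak of ATPneg 2, and 26.2% of the ATPneg 2 peaks overlapped one of ATPneg 1. The 6938 peaks of ATPneg 1 alone had a median width of 126 bp. Of these, 89.9% lay at WT H3K27ac peaks and 0.980% at CTCF peaks, but 67.2% overlapped a peak of CTCF WT 2 and 1.33% one of CTCF WT 1. The 26405 peaks of ATPneg 2 alone had a median width of 374 bp, with 7.20% at H3K27ac and 33.4% at CTCF. WT input, chromatin sequenced without an antibody, was dense at the first set and not at the second. Of ATPneg 1 alone peaks, 92.4% overlapped a deposited region with more than 100 WT input reads per kb, called input-dense from here on, against 6.78% of ATPneg 2 alone peaks. Over whole lists the input-dense share was 52.3% and 11.2% in ATPneg 1 and 2, against 9.40% and 12.8% in WT 1 and 2. A peak outside the deposited regions could not be called dense. The part of input density in the difference between the ATPneg libraries was not tested.

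Peaks were put into classes on the consensus of each group, which is the replicate 1 peaks that overlap a replicate 2 peak. The ATPneg consensus had 9437 peaks, of which 7646 (81.0%, 95% interval 80.2 to 81.8%) overlapped no peak of either WT library and are called gained. A further 905 overlapped a peak of 1 WT library and 886 (9.39%) of both. The WT consensus had 35434 peaks. Of these 33741 (95.2%) overlapped no peak of either ATPneg library and are called lost, 885 (2.50%, 2.34 to 2.67%) overlapped both and are called kept, and 808 overlapped 1. The intervals are exact binomial, treat peaks as independent and cover counting error only. These shares are also the background over all peaks, 81.0% gained and 95.2% lost. The gained number rests on ATPneg 1, the shorter list: it was 33390 without ATPneg 1 and 13245 without ATPneg 2. The median distance from a gained centre to the nearest WT consensus centre was 102752 bp, with closeness barred by the class rule itself.

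Lost peaks were wide and kept peaks narrow. The median width was 255 bp for gained, 127 bp for kept and 717 bp for lost peaks. In ATPneg 2 the peaks over the gained ones were wider, with a median of 710 bp, and scored a median of 57.5. Among WT consensus peaks of 2 kb or more, 99.6% of 5958 were lost. Among those under 200 bp, 67.4% of 4415 were lost and 16.6% kept. The kept class thus came mostly from the narrow end of the WT list.

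CTCF sites took up most of the gained peaks and almost none of the lost ones. Of the gained peaks 77.9% (76.9 to 78.8%) overlapped a WT CTCF consensus peak, against 39.7% (36.4 to 43.0%) of kept and 0.0682% (0.0432 to 0.102%) of lost peaks. The centre of a gained peak lay a median of 60 bp from the nearest CTCF centre, that of a lost peak 227959 bp. Without ATPneg 1 the shares were 43.8% of gained, 34.5% of kept and 0.143% of lost peaks, and without ATPneg 2 45.1%, 25.9% and 0.177%. The order of gained above lost held in all 13 settings tried. That of gained above kept did not: CTCF WT 2 alone overlapped 86.6% of gained, 94.6% of kept and 19.0% of lost peaks, and CTCF WT 1 alone 0.0711% of lost peaks. CTCF regions were deposited for 6417 of the 33741 lost peaks, and 6408 lost peaks overlapped a peak of CTCF WT 2. Reads in these regions are therefore not independent of the CTCF WT 2 list and do not add to the difference between the lists. At deposited CTCF regions under lost peaks the median was 10.1 reads per kb in CTCF WT 1 and 119 in CTCF WT 2, beside 16.7 in WT input. At those under gained peaks it was 125 and 160 reads per kb, beside 30.6 in input. These values are not scaled to depth. Reads in regions came to 3880112 for CTCF WT 1, 17055094 for CTCF WT 2 and 4497600 for input. Scaled to these reads, the gained medians were 32.1 and 9.39 CPM per kb in CTCF WT 1 and 2, beside 6.81 in input. The lost medians were 2.60 and 7.01 CPM per kb, beside 3.71 in input. As reads in regions are not the whole library, this does not show whether CTCF lay above or below input.

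Seen from the CTCF side, nearly all CTCF sites of WT cells held a RAD21 peak of ATPneg 2 and fewer held one of ATPneg 1. Of 16606 WT CTCF consensus peaks, 40.5% had a RAD21 peak in ATPneg 1 and 94.0% in ATPneg 2, against 3.80% in WT 1 and 4.09% in WT 2. In ATPneg cells the share grew with the score of the CTCF peak. In ATPneg 1 it was 18.3% in the lowest of 5 equal bins of CTCF score and 72.2% in the highest, and in ATPneg 2 it was 84.9% and 99.2%. In the WT libraries it was between 1.45% and 6.62% in each of the 5 bins, with no such order. RAD21 peaks of neither group were found at 5.41% of CTCF peaks, and a RAD21 peak in a WT library without one in ATPneg cells at 0.223%. An SMC3 consensus peak of ATPneg cells stood at 91.8% of the CTCF peaks, against an SMC3 WT consensus peak at 3.34%.

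**Figure D3:**
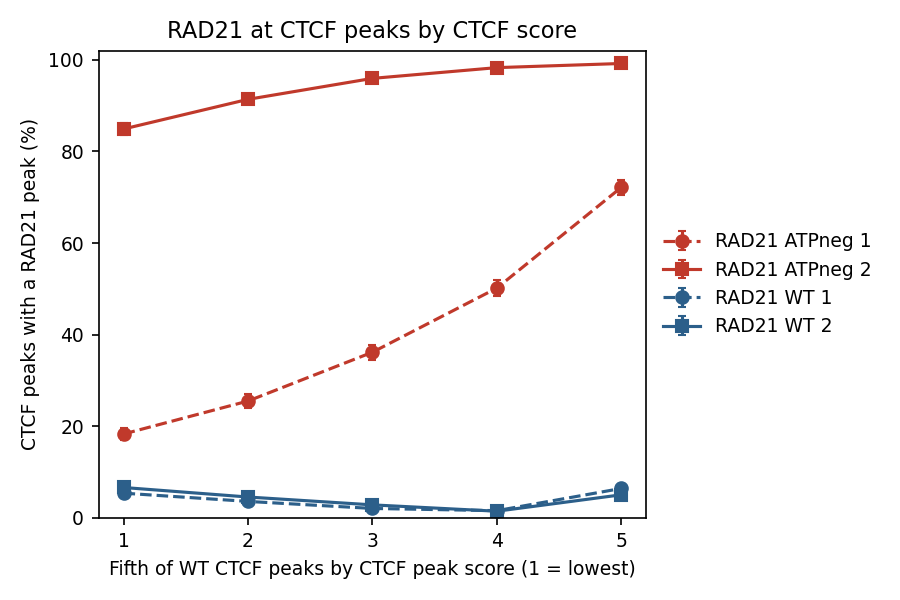
Share of WT CTCF consensus peaks (%) with a RAD21 peak in each of the 4 libraries, in 5 equal bins of CTCF peak score from lowest (1) to highest (5); bars are exact 95% binomial intervals. ATPneg 2 goes up to 99.2% and ATPneg 1 to 72.2% in the highest bin, and both WT libraries stay at or under 6.62%.

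The share of RAD21 peaks at CTCF rose steeply with their score in ATPneg 2 and less in ATPneg 1, and it was low at every score in the WT libraries. In the highest of 5 equal score bins 94.1% of ATPneg 2 peaks were at CTCF, and 6.65% in the lowest. In ATPneg 1 these shares were 44.7% and 29.0%. In WT 1 they were 2.13% and 1.38%, and in WT 2 2.97% and 1.23%.

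SMC3, the partner of RAD21 in the ring, was found at the same places in each group. Of gained RAD21 peaks 91.0% (90.4 to 91.7%) overlapped an SMC3 consensus peak of ATPneg cells and 2.84% one of WT cells. Of lost RAD21 peaks 0.720% overlapped an SMC3 consensus peak of ATPneg cells and 73.3% one of WT cells. Counting a peak in either SMC3 library, 84.3% of gained peaks had SMC3 in ATPneg cells without SMC3 in WT cells, and 95.9% of lost peaks had SMC3 in WT cells without SMC3 in ATPneg cells. The same classes made from the SMC3 lists alone gave 87.0% gained of the ATPneg consensus, and 90.5% lost and 6.40% kept of the WT consensus. NIPBL gave 3.59% gained, 52.1% lost and 29.4% kept with the list named for knockout cells as WT 1, and 4.12% gained, 74.1% lost and 14.0% kept with NIPBL WT 2 alone. WAPL gave 3.89% gained, 91.4% lost and 3.56% kept. The SMC3, NIPBL and WAPL values are set beside those of RAD21 without a test.

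Peaks of the release factor WAPL overlapped most kept and lost RAD21 peaks, and those of the loader NIPBL most kept ones. Most kept peaks were input-dense, and the kept shares at both factors were far lower without such peaks, as given below. A WT WAPL consensus peak overlapped 9.48% of gained, 69.8% of kept and 79.0% of lost peaks. With NIPBL WT 2 alone, a setting chosen after seeing the data, NIPBL peaks overlapped 8.88% of gained, 76.6% of kept and 36.8% of lost peaks. With the consensus that rests on the list named for knockout cells, these were 4.98%, 67.3% and 6.72%, so the lost share turns on that list. For H3K27ac the shares were 11.7% of gained, 59.0% of kept and 2.48% of lost peaks. The gained shares rest on the ATPneg library used. Without ATPneg 2 they were 31.0% for WAPL, 17.8% for the NIPBL consensus and 45.1% for H3K27ac, and without ATPneg 1 they were 3.41%, 2.02% and 7.92%. The order of kept and lost for WAPL also turned, to 72.0% of kept and 59.2% of lost peaks with the union of replicates and to 80.9% and 79.1% without ATPneg 2.

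**Figure D4:**
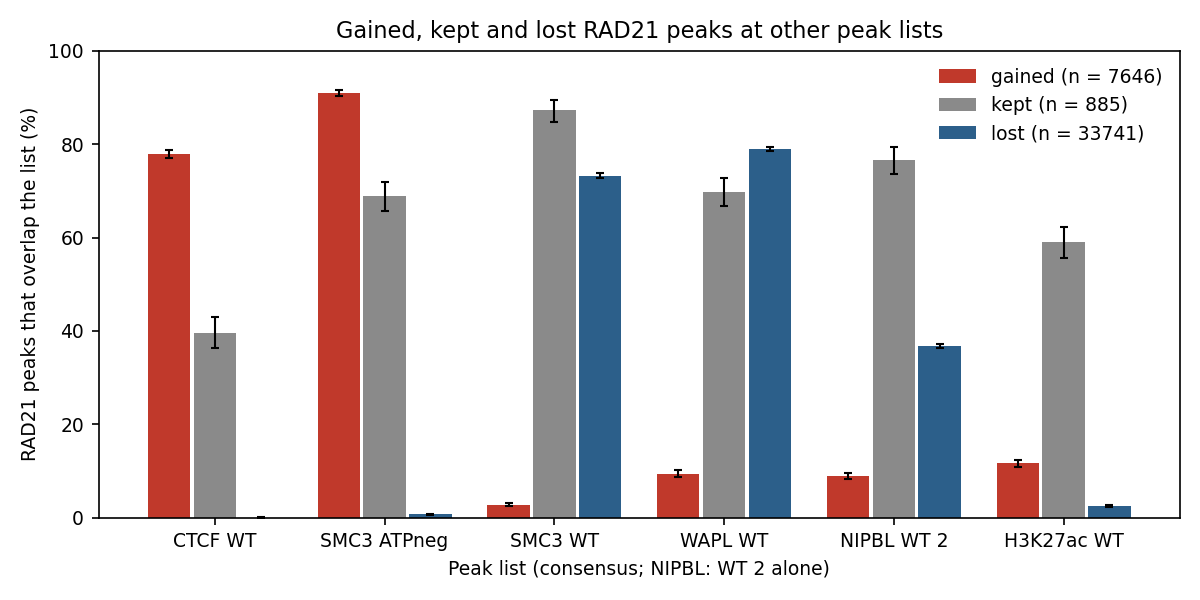
Share of gained, kept and lost RAD21 peaks (%) that overlap the consensus peaks of each list, or for NIPBL the peaks of WT 2 alone; bars are shares with exact 95% binomial intervals. Gained peaks stand out at CTCF WT (77.9%) and SMC3 ATPneg (91.0%), lost peaks at SMC3 WT (73.3%) and WAPL WT (79.0%), and kept peaks have over 58% at each list drawn but CTCF WT (39.7%).

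Kept peaks went together with dense input. Of the 885 kept peaks 69.4% were input-dense, as were 91.6% of the WT peaks found in 1 ATPneg library. For gained peaks the share was 15.0% and for lost peaks 4.48%. Within the gained class it was 7.61% at CTCF and 40.9% elsewhere. Median WT input in the deposited RAD21 regions was 393 reads per kb under kept peaks, 11.5 under lost peaks, 39.0 under gained peaks at CTCF and 1107 under gained peaks elsewhere, beside 32.8 over all 88793 regions. Such regions were deposited for 4574 of 5955 gained peaks at CTCF and 767 of 1691 elsewhere. The value of 1107 thus leaves out most gained peaks away from CTCF. With input-dense peaks left out of all 4 lists, a setting chosen after seeing the data, 269 peaks (0.827% of the WT consensus) were kept, 99.0% were lost and 6429 gained. The kept shares at H3K27ac, WAPL and the NIPBL consensus were then 1.86%, 16.7% and 11.5%. The share at CTCF was 41.3% of kept and 84.5% of gained peaks.

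Read counts exist for the WT libraries and are not independent of classes that ask for a WT peak or its lack. RAD21 reads per kb in WT 1 and 2 had medians of 83.0 and 68.6 in regions of gained peaks at CTCF, 2273 and 2169 in those of gained peaks elsewhere, 137 and 124 in those of lost peaks, and 1346 and 1352 in those of kept peaks, over libraries of 24962590 and 21848632 reads in regions. Scaled to the reads in regions, gained peaks at CTCF had 3.32 and 3.14 CPM per kb of RAD21 and 4.16 of input. Gained peaks elsewhere had 91.1 and 99.3 of RAD21 and 118 of input. Lost peaks had 5.50 and 5.70 CPM per kb of RAD21 and 1.23 of input. Reads in regions are not the whole library, so the scaling does not show whether RAD21 lay above or below input. Regions were deposited for 5341 of the 7646 gained peaks in the RAD21 table. These were 4574 of 5955 at CTCF and 767 of 1691 elsewhere, and the medians cover those peaks only.

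Gained peaks lay nearer to genes than lost ones. By the authors' annotation, 11.4% (10.7 to 12.2%) of gained, 5.42% of kept and 0.442% (0.374 to 0.518%) of lost peaks were within 2 kb of a gene start. A start within 10 kb was found for 32.9% of gained, 18.4% of kept and 6.02% of lost peaks. No start within 200 kb was listed for 5.20% of gained, 26.2% of kept and 39.5% of lost peaks. Gene bodies held 63.3% of gained, 57.7% of kept and 51.8% of lost peaks. Annotation was found for 7539 gained peaks and for all kept and lost ones.

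The shares of the classes also differed between chromosomes, and 3 that stood far apart are given, chosen after their values were seen. Chromosome X held 1.84% of gained and 9.07% of lost peaks, and 2.91% and 2.84% of all ATPneg peaks, against 8.77% and 8.67% of WT peaks. Chromosome 11 held 7.96% of gained, 3.73% of kept and 2.64% of lost peaks. Chromosome 19 held 3.31% of gained, 2.26% of kept and 1.50% of lost peaks.

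The top 10 gained genes, by mean score rank of the peak in the 2 ATPneg lists with a start within 10 kb, all had a peak that overlapped CTCF and ATPneg SMC3 peaks. They are described as chosen by their scores, which ran from 29.9 to 48.3 in ATPneg 1 and from 124 to 169 in ATPneg 2. Over all gained peaks, 77.9% overlapped CTCF and 91.0% ATPneg SMC3 peaks. In the highest of 5 score bins of ATPneg 2, 94.1% of peaks were at CTCF, so a choice by score favoured CTCF sites. Bcl2l1 came first. Scgb1c1, a secretoglobin gene, had its peak 363 bp from the start (41.6 and 152), Lif, the cytokine leukemia inhibitory factor, 943 bp (48.3 and 124) and Traf5, a signalling adaptor of tumour necrosis factor receptors, 69 bp (31.0 and 153). Junb, an AP-1 transcription factor, had a peak 3755 bp away at chr8:87498163-87498543 (35.4 and 156). The others were Apitd1, a centromere protein gene (35.0 and 169), Gnai2, an inhibitory G protein subunit (35.2 and 159), Eif4b, a translation initiation factor (32.1 and 148), Irg1, which makes itaconate (31.5 and 151), and Tbxas1, thromboxane synthase (29.9 and 156).

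The top 10 lost genes had WT scores of 17.5 to 31.2 in WT 1 and 20.9 to 34.9 in WT 2. None of their peaks overlapped CTCF, beside 0.0682% of all lost peaks. Of these 10 peaks 7 were over 1 kb and all overlapped SMC3 WT peaks, beside 37.1% and 73.3% of all lost peaks. Both traits went with the score used to choose them. The median width in WT 1 was 1949 bp in the highest of 5 score bins and 298 bp in the lowest. At double the lowest score, 96.6% of lost peaks overlapped SMC3 WT peaks. Pld5, of the phospholipase D family, had a peak of 6688 bp at chr1:178212275-178218962 (23.8 and 22.0). Phf3, a PHD finger gene, had 1 of 5978 bp at chr1:30910634-30916611 (27.1 and 31.2), and Fmo4, a flavin monooxygenase, 1 of 5820 bp at chr1:164750444-164756263. Plscr4, a phospholipid scramblase (20.5 and 24.4), Sult1b1, a sulfotransferase (17.5 and 24.4), Prl3d3, a placental lactogen (26.2 and 31.6), and Rai2 (21.6 and 24.1) were also wide. The narrow ones were near Klf10, a zinc finger transcription factor (31.2 and 34.9), Ier5, an immediate early gene (18.2 and 29.1), and Ugt2b36, a glucuronosyltransferase (21.3 and 20.9).

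The top 10 kept genes had narrow peaks of 114 to 421 bp in WT 1. Of these peaks 9 were at CTCF and 10 at SMC3 WT, beside 39.7% and 87.2% of all kept peaks. At double the lowest score the kept shares were 53.5% and 96.3%, so both also went with the score. The strongest by rank was near Igkv13-57-2, a kappa variable segment, with scores of 40.9 and 57.5 in ATPneg 1 and 2, against 20.8 and 29.6 in WT 1 and 2. Prkdc, the DNA-dependent protein kinase of end joining, had 70.3 and 46.0 in ATPneg cells, against 12.6 and 25.9 in WT cells. Traf2, an adaptor of tumour necrosis factor receptors, had 52.3 and 38.7 in ATPneg cells, against 17.5 and 22.1 in WT cells. The remaining genes were Izumo1, Smap2, Zfp949, Rn4.5s, Cand2, Ifnz and Mrpl4. Scores of different lists do not share a scale, so no change was read from them.

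Of 16 genes of cohesin, BRWD1 and B cell development looked at one by one, 7 had a gained peak within 10 kb of the start and none had a kept or lost peak, beside 13.0%, 0.874% and 5.31% of all genes in the tables. All 7 gained peaks overlapped CTCF and ATPneg SMC3 peaks, beside 77.9% and 91.0% of all gained peaks. Cxcr4, the chemokine receptor that holds B precursors in the marrow, had its start inside the region of the peak at chr1:130488888-130489289 (6.83 in ATPneg 1 and 48.1 in ATPneg 2). Smc3 had a peak 265 bp from the start (5.87 and 62.9) and Myc, a growth regulator, 1640 bp (10.4 and 94.8). Rag1, the recombinase subunit, had a peak 3368 bp away (5.92 and 94.2), Foxo1, which drives Rag genes, 5431 bp (13.1 and 101), Ebf1, a B lineage factor, 6792 bp (13.3 and 96.6), and Igll1, a surrogate light chain gene, 8801 bp (5.26 and 46.8). The ATPneg 1 scores of Igll1, Smc3, Rag1 and Cxcr4 lay near the threshold of 5. No peak of any class was found within 10 kb of Rad21, Nipbl, Wapal, Ctcf, Brwd1, Rag2, Pax5, Ikzf1 and Irf4.

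Over all 23676 genes in the tables, 3070 (13.0%) had a gained, 207 (0.874%) a kept and 1257 (5.31%) a lost peak within 10 kb of the start, and 88 had both gained and lost peaks. All 13 gene lists had more genes with gained than with lost peaks, and 12 lay above the 13.0% of all genes. The T cell list, with 3 of 20, and the cohesin list, with 5 of 29, lay near that share, where few genes decide the side. Housekeeping genes, with 5 of 20, lay above B lineage transcription factors, with 8 of 34. A place above the share was therefore not read as a trait of a list. Immediate early and heat shock genes had gained peaks at 14 of 26, among them Jun, Junb, Egr1, Hspa1a and Hsp90ab1. The erythroid and megakaryocyte list had them at 9 of 21, among them Klf1 and Hbb-b1, and the myeloid list at 5 of 24. Proliferation genes had them at 11 of 31, with Ccnd2, a D cyclin, at scores of 28.2 and 146 in ATPneg 1 and 2. Of the same list 1 gene, Il7r, the interleukin receptor of B precursors, had a lost peak.

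Mitochondrial oxidative phosphorylation genes, which include the target of the drug, had gained peaks at 14 of 46, among them the ATP synthase subunits Atp5d, Atp5g2, Atp5h, Atp5k and Atp5o, with none kept or lost. Atp5o had scores of 16.4 and 78.4 in ATPneg 1 and 2. Glycolysis genes had them at 7 of 26, 4 of which had one at CTCF, with Pfkl at 19.1 and 94.1. The AMPK, mTOR and stress response list had them at 4 of 32, with Sesn2, a sestrin that restrains mTOR, at 22.7 and 161. For pre-B receptor and recombination genes the count was 6 of 24, with Nhej1, an end-joining factor, at 23.3 and 138 and Vpreb3 at 20.2 and 139. B lineage transcription factors had 8 of 34, with Bcl6, a transcriptional repressor, at 19.5 and 136 and Sfpi1, which encodes PU.1, at 28.2 and 120. Cohesin and its regulators had 5 of 29, which were Smc3, Stag2, Pds5a, Pds5b and Espl1. Late B cell genes had 6 of 30, T cell genes 3 of 20 and housekeeping genes 5 of 20. The lists of other cell types thus also held gained peaks, and no count was tested against the rest.

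**Figure D5:**
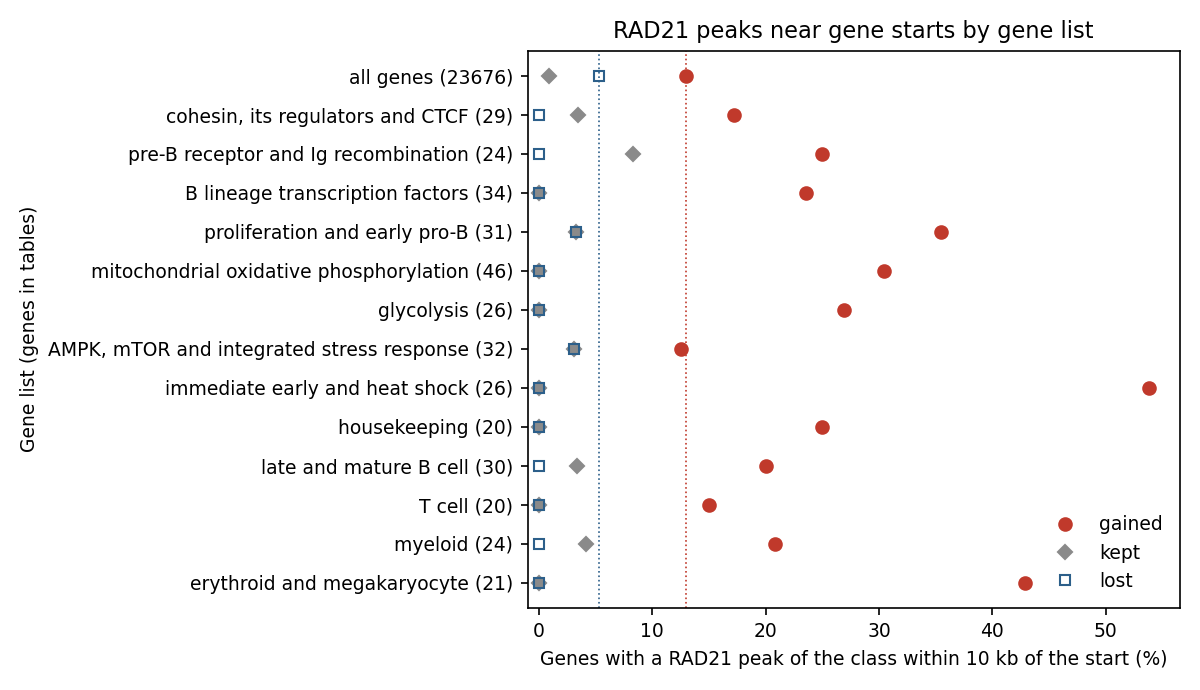
Share of the genes of each list (%) with a gained, kept or lost RAD21 peak within 10 kb of the start; dotted lines mark all genes for gained (13.0%) and lost (5.31%) peaks, and numbers in brackets are genes in the tables. All lists but the AMPK, mTOR and stress response list lie to the right of the gained line.

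Lost peaks were the most numerous class at the kappa and heavy chain loci, as they were over all peaks with a nearest gene (7147 gained, 653 kept and 20402 lost). With the nearest gene symbol beginning Igk, 2 peaks were gained, 3 kept and 66 lost, and with Igh 7 were gained, 3 kept and 37 lost. Igk thus took 0.0280% of gained, 0.459% of kept and 0.323% of lost peaks with a nearest gene, and Igh 0.0979%, 0.459% and 0.181%. No peak of any class had a nearest gene symbol beginning Tcra, Trav, Tcrb or Trbv. The annotation lacked the symbols Trac and Trbc1, and whether it held others of these loci was not looked at. This count therefore cannot show whether RAD21 peaks lay at the T cell receptor loci. Olfactory and vomeronasal receptor genes, large families silent in B cells, were nearest to 0.616% of gained, 1.07% of kept and 5.65% of lost peaks. Ribosomal protein genes were nearest to 25 gained, 2 kept and 9 lost peaks, and Hox genes to 8 gained and no kept or lost peaks.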

How the data were processed

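Chromatin of sorted small pre-B cells was immunoprecipitated and sequenced. Per the submitters' processing notes the build was mm9 and the tools included BWA, Picard, MACS2, bedtools, featureCounts and edgeR; versions and settings are not given in the sources used here. The deposited peak lists give a peak score of at least 5 per peak and library; which MACS2 score it is was not given. Peaks were called per library. The deposited counts give, for WT libraries and WT input, the reads in each region merged over peak lists; 2 input columns from outside the series were not used. Gene positions are the authors' annotation of those regions.

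Overlaps of at least 1 bp were computed in Python 3.11.15 with numpy 2.4.6, pandas 2.3.3, scipy 1.17.1 and matplotlib 3.10.9, and the code was tested on simulated intervals. An annotated region was taken from the RAD21 table, or else from SMC3, CTCF, NIPBL, WAPL, H3K27ac or H3K4me1. Shares carry exact Clopper-Pearson 95% intervals. No count model was fitted. Named genes have a start within 10 kb of the region: the first 10 of each class by mean score rank, up to 2 per list and 16 fixed genes. Promoters on chromosome 18 were left aside when those printed were ranked. Members and lists were chosen with earlier results of these data known.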

Additional observations from a re-analysis of the deposited data

How the results depend on the processing

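Shares count as changed where they moved by more than 1 SD over the 4 pairs of an ATPneg and a WT library, and counts where they moved by over 1.5 times. Of 76 values for the 7 main results 38 moved. With the union of replicates, 38982 peaks (91.3%) were gained, 7.26% kept and 92.7% lost, and CTCF shares were 37.6% of gained and 22.4% of kept peaks. With equally long lists, 95.1% were gained and 93.9% lost, and CTCF shares were 87.5% of gained, 66.5% of kept and 0.193% of lost peaks. At double the lowest score, 3530 peaks were gained, and CTCF shares were 83.1% of gained, 53.5% of kept and 0.271% of lost peaks. With 400 bp windows 94.1% were lost. Without input-dense peaks, 89.1% were gained, 0.827% kept and 99.0% lost, with CTCF at 84.5% of gained and 0.00621% of lost peaks. CTCF WT 1 alone gave 81.1% of gained peaks; CTCF WT 2 alone gave 86.6% of gained, 94.6% of kept and 19.0% of lost peaks. An overlap of 50% moved no main result. Leaving out each library gave 7841 to 33390 gained peaks (80.9 to 93.3%), 2.55 to 4.10% kept and 93.1 to 96.8% lost, with CTCF shares of 43.8 to 77.9% for gained, 25.9 to 46.7% for kept and 0.0695 to 0.177% for lost peaks. The gained CTCF share was 43.8% without ATPneg 1 and 45.1% without ATPneg 2. Among the other 12 results, 73 of 123 values stayed. The NIPBL consensus overlapped more gained than lost peaks without ATPneg 2 (17.8% and 7.20%) and without WT 2 (7.91% and 6.98%), against fewer in the other 10 settings, NIPBL WT 2 alone included. At double the lowest score SMC3 overlapped 96.3% of kept and 96.6% of lost peaks, the opposite order of the other 10 settings. The causes were not tested. With the replicate number as a block, which the labels do not say pairs libraries, the exact two-sided permutation p was 0.5 for each of the 4 library measures, the smallest that 2 pairs allow, and the difference in peak number was still -19009. The unknown depth of the ATPneg libraries limits what a missing peak shows.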
